A study of Homo sapiens with 16 samples.

Results

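After 24 h of PARP inhibition, 811 genes were higher and 88 were lower by at least 1 on the log2 scale with both olaparib and talazoparib in MUTZ-3 cells. These 899 genes were chosen by their counts in 3 libraries of the series' 16: 1 of olaparib for 24 h, 1 of talazoparib for 24 h and 1 of DMSO, the solvent control, for 24 h. A gene was measured if it had 10 or more counts in at least 2 of these libraries, which left 16515 of 60623 listed genes. A ratio is the log2 of the CPM (a gene's count scaled by the total count of its library) with inhibitor over the CPM with DMSO. The 811 higher genes are 4.91% of the genes measured and the 88 lower genes are 0.533%. Since the ratios chose the genes, their sizes are a description, and the edgeR values given for them come from the same libraries and are no independent test of them.

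MUTZ-3 is a human acute myeloid leukemia line whose inversion on chromosome 3 places a GATA2 enhancer next to MECOM, the gene of the transcription factor EVI1. All cells were this line, without any shRNA in the inhibitor libraries, grown in MEMalpha with serum, conditioned medium of the bladder carcinoma line 5637 and GM-CSF, a myeloid growth factor. Treatment lasted 12, 24 or 48 h with the solvent alone, with olaparib at 10 µM or with talazoparib at 1 µM, and 1 library came from untreated cells at 0 h. In the other 6 libraries, lentiviral shRNAs against EVI1 (shEVI1-2531 or shEVI1-2532) or a non-targeting control (NTC) were sampled at day 3 and day 6, so those cells also went through transduction and selection with puromycin. The doses of the inhibitors differ, so their values stand side by side and the compounds are not compared.

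PARP1 binds breaks in DNA and marks proteins there with chains of ADP-ribose, which recruits repair factors. Olaparib and talazoparib occupy its catalytic site and hold the enzyme on DNA, and the trapped complexes obstruct replication forks. Cells with such damage commonly activate p53, which induces the cell cycle inhibitor CDKN1A (p21) and represses genes of mitosis through the DREAM complex. EVI1 keeps myeloid cells immature, and monocytes are among the cells that MUTZ-3 can give rise to when it matures.

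The 24 h libraries held 72681943 (DMSO), 67276076 (olaparib) and 57972651 (talazoparib) counts, so that 3 counts, the floor used for a count of 0, correspond to 0.0413, 0.0446 and 0.0517 CPM. Each condition has 1 library, and the 95% intervals given in square brackets are exact conditional binomial intervals that cover counting error only. Both ratios of a gene share the DMSO library of 24 h, so an unusual value there moves both of them in the same direction. DMSO libraries differed among themselves: 3.78% of the measured genes differed by 1 or more between DMSO 12 h and DMSO 24 h, and 5.36% between DMSO 48 h and DMSO 24 h. For that reason, the larger groups are also set against the DMSO libraries of the other times. The progenitor markers CD34, MECOM, KIT and SPINK2 were at 290.6, 50.9, 98.9 and 32.8 CPM in the DMSO library, while the monocyte markers CSF1R and LYZ were present as well (194.2 and 400.5 CPM) and CD14 was at 5.54 CPM.

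**Figure D1:**
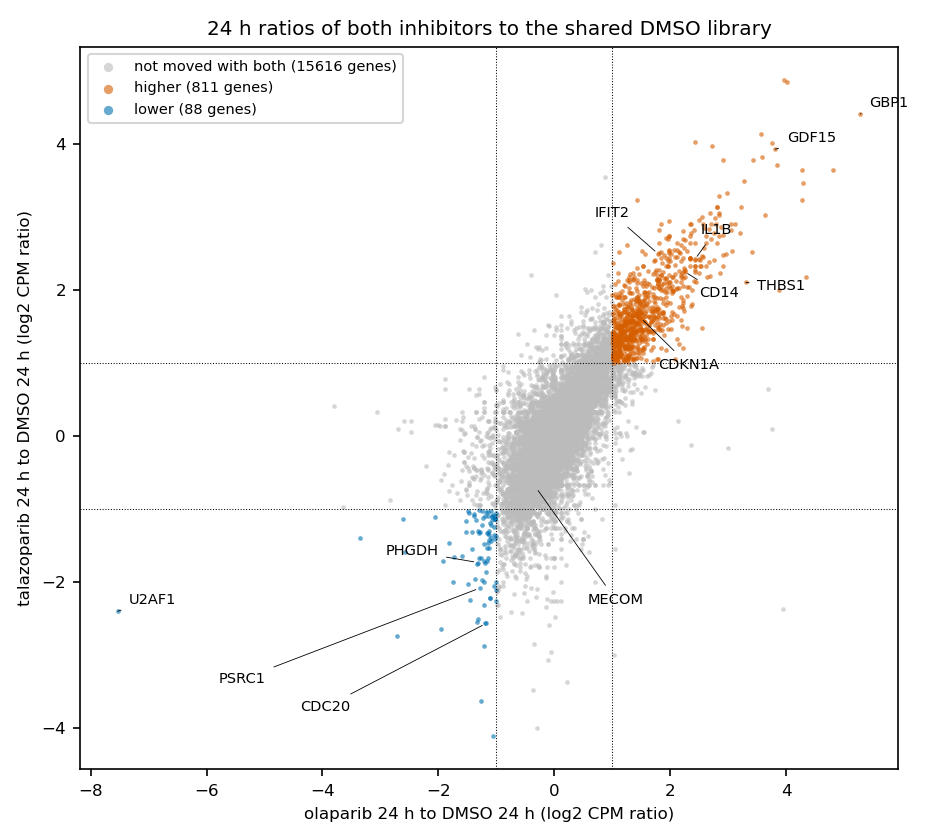
Log2 CPM ratio of olaparib (x axis) and talazoparib (y axis) to the shared DMSO library at 24 h, 1 point per gene, with dotted lines at 1 and -1. The 811 higher genes and the 88 lower genes lie beyond both lines, while MECOM lies inside them at -0.32 and -0.70.

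Most of the higher genes had not reached that size at 12 h. Of the 811, 568 (70.0%) were under 1 with both inhibitors at 12 h against DMSO 12 h, 106 (13.1%) had reached it with 1 inhibitor and 137 (16.9%) with both. Over all measured genes, 1.62% were higher with both at 12 h. The median ratio of the 811 was 0.48 with olaparib and 0.52 with talazoparib at 12 h, 1.44 and 1.62 at 24 h, and 1.67 and 1.77 at 48 h. Of the 568 genes, 228 were within 0.5 of no difference with both inhibitors. At 48 h, 523 of the 811 (64.5%) were still higher by 1 or more with both inhibitors, against 7.79% of all measured genes.

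The lower genes followed a similar division, with 67 of 88 (76.1%) not yet moved at 12 h, 16 (18.2%) moved with 1 inhibitor and 5 (5.68%) with both, against 0.351% of all measured genes lower with both at 12 h. These 5 were IGLL1, IL17F, AL596094.1, PITRM1-AS1 and PIWIL3. By 48 h, 51 of the 88 (58.0%) were lower with both inhibitors, against 9.47% of all measured genes.

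**Figure D2:**
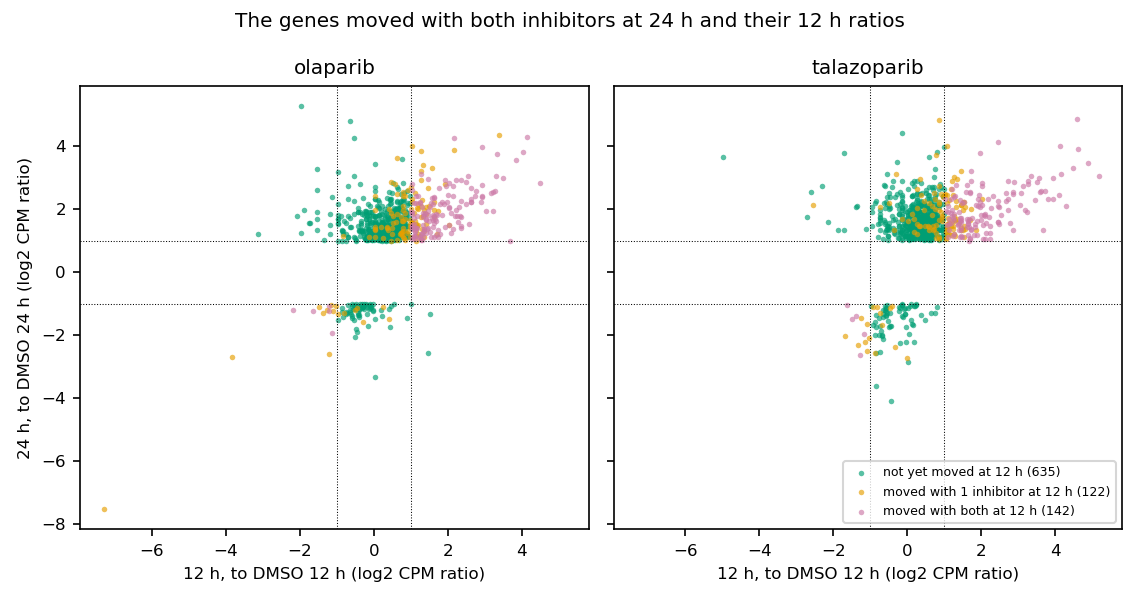
The 899 genes by their ratio at 12 h (x axis, to DMSO 12 h) and at 24 h (y axis, to DMSO 24 h), both as log2 CPM ratios, for olaparib (left) and talazoparib (right). Colour gives the state at 12 h: 635 genes not yet moved, 122 moved with 1 inhibitor and 142 moved with both.

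The difference between the times was tested with edgeR's quasi-likelihood method over 9 libraries, treating the olaparib and talazoparib libraries of a time as a pair. No gene of 17218 (0.0%) passed an adjusted p of 0.05 for a higher or lower log2 ratio at 24 h than at 12 h, and 770 had an unadjusted p under 0.05. DESeq2 called 16 genes with a higher log2 ratio at 24 h than at 12 h and 1 with a lower one. "Not yet moved" is therefore a statement about where single-library ratios lay, and not a tested change between 12 h and 24 h.

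The same fit gives an error for the effect at 24 h, namely how far the 2 inhibitors' libraries departed from each other, with the lone DMSO library assumed to vary like them. It called 310 genes higher (1.8%) and 13 lower (0.0755%) at an adjusted p under 0.05. Of the 811 higher genes, 809 were tested and 252 (31.1%) passed. Only 3 of the 88 lower genes passed (3.41%): PSRC1, SIK1B, which has a near-identical copy in SIK1, and AL133367.1. The fit uses the contrast that chose the genes, so passing it is no independent support for them.

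Low counts make up much of the set. Of the higher genes, 214 had a mean of 5 CPM or more over the 3 libraries and 421 were under 1 CPM, and among the lower genes 8 reached 5 CPM and 61 were under 1. The interval lay beyond 0 with both inhibitors for 708 of the 811 and 83 of the 88. Protein-coding genes were 593 of the higher and 32 of the lower genes. Another gene overlapped 494 of the higher and 52 of the lower genes, and reads of overlapping genes cannot be told apart here, as the strand setting of the counting is not given in the sources used. The named genes below are mainly those of 5 CPM or more.

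Genes of the p53 response were higher at 24 h, and most of those that passed the limit had already done so at 12 h. Of 45 measured p53 targets, 9 (20.0%) were higher by 1 or more with both inhibitors, against 4.91% of all measured genes, and none was lower. All 45 had positive ratios with both, as did 6472 of the 16515 measured genes (39.2%), whose 2 ratios share the DMSO library. The median was 0.71 with olaparib and 0.68 with talazoparib, against 0.02 and -0.02 over all genes. At 12 h it was 0.59 and 0.72 and at 48 h 0.73 and 0.61, so the list stood at about the same level at the 3 times. In edgeR, 15 of the 45 rose at 24 h, against 1.8% of all genes tested, and none fell. The exceptions among the 9 to an early start were FAS, a death receptor, and ZMAT3, an RNA-binding protein, whose 12 h ratios were between 0.61 and 0.86.

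CDKN1A, the inhibitor of cyclin-dependent kinases, was at 202.2 CPM with DMSO, 566.5 with olaparib and 622.8 with talazoparib at 24 h. All inhibitor libraries of the 3 times lay between 536.7 and 717 CPM, above the DMSO and untreated libraries (107.7 to 229.3 CPM). Its ratios at 24 h were 1.49 [1.46 to 1.51] and 1.62 [1.59 to 1.65], and in edgeR it rose by 1.56 ± 0.21 (SE; adjusted p = 0.0157). It was the only one of 6 measured genes of CDK inhibitors in the set (16.7%, against 4.91% of all measured genes). A count this small says little about that list. GDF15, a secreted stress cytokine at chromosome 19, 18374731 to 18389176 (GRCh38), was at 1.07 CPM with DMSO, 15.1 with olaparib and 16.4 with talazoparib. Its ratios of 3.81 [3.48 to 4.16] and 3.93 [3.60 to 4.28] were the largest among the higher genes of 5 CPM or more by the smaller of both ratios, after 4.03 and 4.63 at 12 h.

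BTG2, an antiproliferative gene, was at 30.8 CPM with DMSO, 115 with olaparib and 121 with talazoparib at 24 h (ratios 1.90 and 1.97; adjusted p = 0.010035 in edgeR). Untreated cells at 0 h held 105.1 CPM of it, so that the DMSO libraries were the low ones and the inhibitor libraries lay near the untreated level. TP53INP1, a p53-induced nuclear protein, was at 27.8 CPM with DMSO, 74 with olaparib and 91.4 with talazoparib. MDM2, the ligase that degrades p53, was at 193.5, 451 and 488.8 CPM in the same order (adjusted p = 0.0179 in edgeR). Against each of the 3 DMSO libraries, 8 of the 9 p53 targets were higher by 1 or more with both inhibitors, against 36.5% of all higher genes.

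The other strongly higher genes that had moved with both inhibitors at 12 h were not all on the p53 list. Among the 214 higher genes of 5 CPM or more, 19 had moved with both at 12 h, and they include NECTIN4, a cell adhesion molecule, MUC5AC, a mucin, and SRC, a tyrosine kinase. NECTIN4 was at 1.72 CPM with DMSO, 11.1 with olaparib and 14.3 with talazoparib at 24 h. MUC5AC was at 1.54, 8.21 and 10.9 CPM, and SRC at 4.22, 19.3 and 19.5 CPM, in the same order. All 3 rose in edgeR (adjusted p = 0.0221, 0.0119 and 0.00676). CD70 and TNFSF9, both ligands of the TNF family, and PRF1, a pore-forming protein, are also among the 19.

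Genes for the machinery that the drugs act on and for the repair of the damage did not join the set. None of 16 genes of PARP and single-strand break repair (medians -0.21 and -0.24) was higher or lower with both inhibitors. Nor was any of 38 genes of homologous recombination and the Fanconi pathway (medians -0.24 and -0.49). Over all measured genes 4.91% were higher and 0.533% lower, so counts of 0 in lists this small carry little weight. Most members were negative with both inhibitors, 13 of 16 (81.2%) and 31 of 38 (81.6%), against 39.2% of all measured genes. At 48 h, 4 of 16 and 18 of 38 were lower with both, against 9.47% of all. PARP1 itself was at 367 CPM with DMSO, 316.6 with olaparib and 251.3 with talazoparib (adjusted p = 0.346 in edgeR). In the BCL2 family, 2 of 15 genes were higher (13.3%, against 4.91% of all measured genes), and both rose in edgeR. A count this small says little about the family. BIK, which promotes apoptosis, was at 0.62 CPM with DMSO, 2.07 with olaparib and 2.19 with talazoparib and had moved at 12 h, while BCL2A1, which opposes it, was at 27.3, 63.8 and 81.4 CPM and had not.

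**Figure D3:**
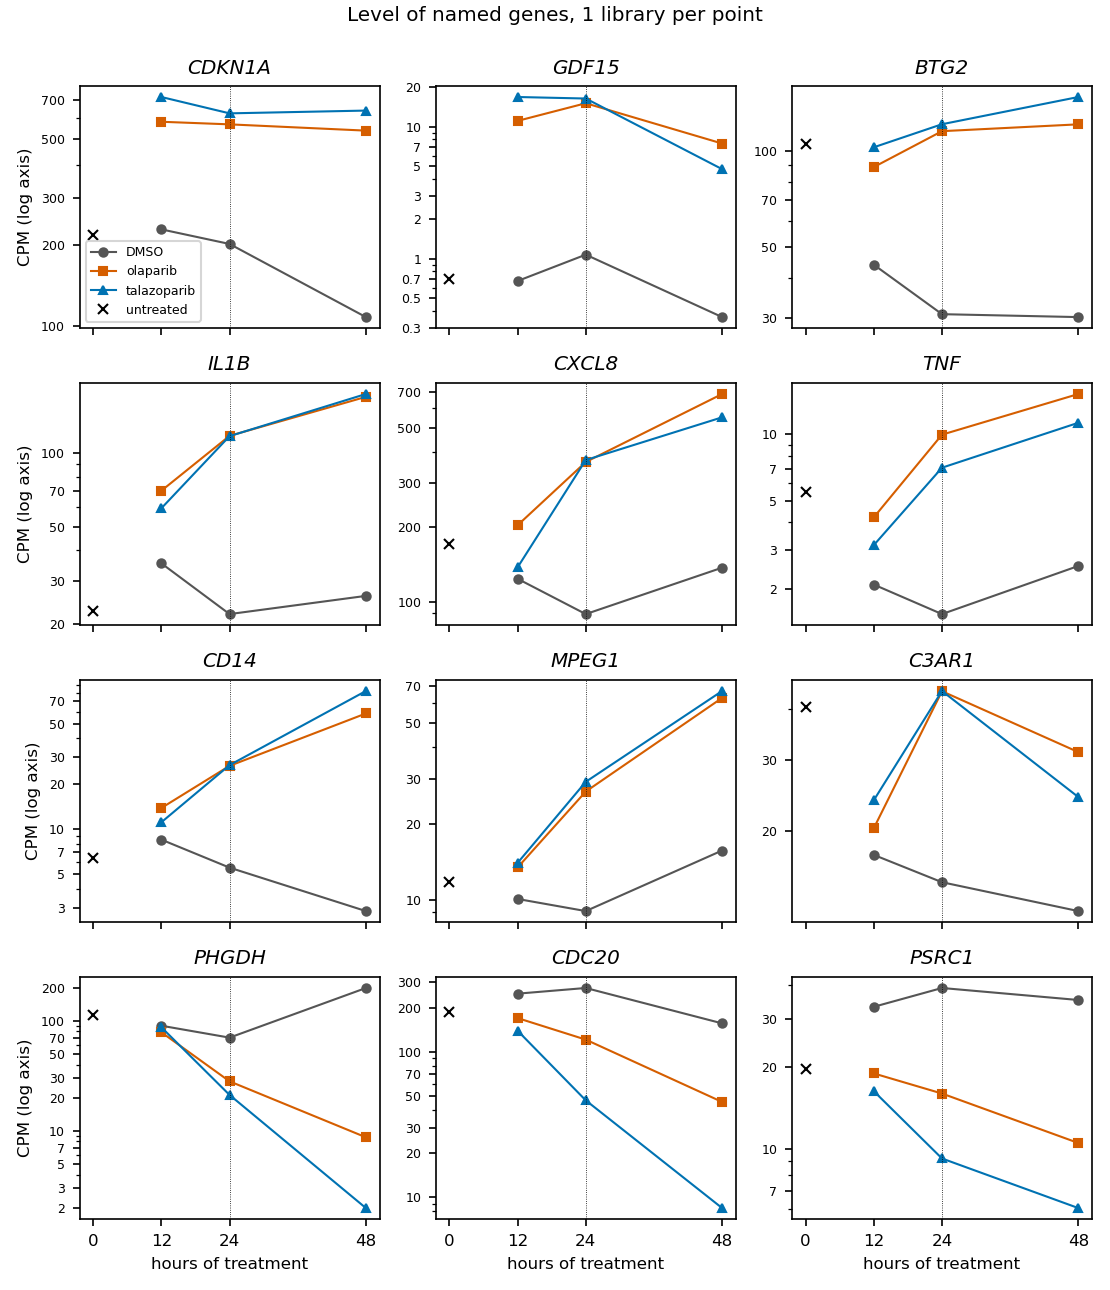
CPM (log axis) of 12 named genes against hours of treatment, 1 library per point, with untreated cells at 0 h as crosses and a dotted line at 24 h. CDKN1A and GDF15 were high from 12 h on, while CXCL8, CD14 and MPEG1 lay farther above DMSO at 24 h than at 12 h and PHGDH left the DMSO level after 12 h.

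Inflammatory chemokines and cytokines were the list with the highest share of higher genes. Of 22 measured, 13 (59.1%) were higher with both inhibitors, against 4.91% of all measured genes, and none was lower. The medians were 1.52 and 1.48 at 24 h after 0.61 and 0.43 at 12 h. Of the 13, 7 had not yet moved at 12 h and 4 had moved with both inhibitors. Among all higher genes these shares were 70.0% and 16.9%. In edgeR, 10 of the 22 rose, against 1.8% of all genes tested. Against each of the 3 DMSO libraries, 7 of the 13 stayed higher by 1 or more, against 36.5% of all higher genes: CCL2, CCL3, CSF1, CXCL8, IL1A, IL1B and TNF. The untreated library, however, held 5.22 CPM of CCL3, above its 24 h values of 1.84 with olaparib and 1.85 with talazoparib.

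IL1B, the secreted interleukin of activated monocytes (chromosome 2, 112829751 to 112836816, GRCh38), was at 21.9 CPM with DMSO, 117.4 with olaparib and 117.1 with talazoparib at 24 h. Both inhibitor libraries lay far above every DMSO and untreated library (21.9 to 35.4 CPM), with ratios of 2.42 [2.34 to 2.50] and 2.42 [2.34 to 2.50] after 0.99 and 0.75 at 12 h. It rose by 2.42 ± 0.18 in edgeR (adjusted p = 0.00391). CXCL8, the neutrophil chemokine, was at 89 CPM with DMSO, 365.1 with olaparib and 371.8 with talazoparib, and its untreated level was 170.8 CPM. It had ratios of 2.04 and 2.06 at 24 h, after 0.72 and 0.15 at 12 h.

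TNF was at 1.54 CPM with DMSO, 9.97 with olaparib and 7.07 with talazoparib, and its untreated level was 5.50 CPM. CCL2, a monocyte chemokine, was at 62.1, 237.1 and 279.6 CPM. IL1A rested on few reads in the control, with 19 counts with DMSO against 252 and 199 with the inhibitors. These 3 genes rose in edgeR (adjusted p = 0.0123, 0.0117 and 0.010035). CCL20, by contrast, had 1, 11 and 14 counts, and its ratios carry little weight.

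Monocyte genes were near the DMSO level at 12 h and higher at 24 h. Of 28 measured, 14 were higher with both inhibitors at 24 h. All 14 had not yet moved at 12 h, against 70.0% of all higher genes. All 28 had positive ratios with both inhibitors at 24 h, against 39.2% of all measured genes. The list median was 0.19 and 0.16 at 12 h, 0.97 and 1.41 at 24 h, and 1.65 and 1.93 at 48 h. In edgeR, 11 of the 28 rose at 24 h, against 1.8% of all genes tested, and none fell. Against each of the 3 DMSO libraries 8 of the 14 stayed higher, against 36.5% of all higher genes. Among the 8 were CD14, FCN1, LILRB2, S100A12, S100A8, S100A9 and TLR8.

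CD14, the lipopolysaccharide co-receptor of monocytes (chromosome 5, 140631728 to 140633701, GRCh38), was at 5.54 CPM with DMSO, 26.2 with olaparib and 26.5 with talazoparib. The DMSO and untreated libraries of all times held 2.86 to 8.50 CPM, below every inhibitor library. Its ratios were 2.24 [2.08 to 2.40] and 2.26 [2.10 to 2.42] after 0.70 and 0.38 at 12 h, and it rose in edgeR by 2.25 ± 0.27 (adjusted p = 0.0119). For the difference between 24 h and 12 h its unadjusted p was 0.00089 and its adjusted p 0.979. At 48 h it reached 58.3 and 82.2 CPM.

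S100A8 and S100A9, the subunits of the calprotectin complex, were abundant already with DMSO. S100A8 was at 234.7 CPM with DMSO, 594.3 with olaparib and 912.2 with talazoparib (adjusted p = 0.0435 in edgeR). S100A9 was at 602.1, 1348 and 1939 CPM in the same order and missed the threshold (adjusted p = 0.0598). CYBB, the catalytic subunit of the phagocyte oxidase, was at 266.8, 601 and 706.2 CPM.

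Other monocyte genes were not in the set. LYZ, lysozyme, had ratios of 0.61 and 1.45, and CSF1R, the receptor of the monocyte growth factor, 0.21 and 0.01. Of the granule genes, none of 14 from primary granules was higher, while 2 of 10 from secondary and tertiary granules were. With 4.91% of all measured genes higher, counts in lists this small carry little weight. MMP9, a gelatinase, was at 5.27 CPM with DMSO, 25.8 with olaparib and 20 with talazoparib, and CEACAM1, an adhesion molecule, at 0.21, 1.17 and 1.10 CPM. None of 13 MHC class II genes was higher (medians -0.04 and 0.31), which is near the share of 4.91% over all genes.

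Among the 92 higher genes of 5 CPM or more that were within 0.5 of no difference at 12 h, the largest values of the smaller 24 h ratio belonged to C3AR1, MPEG1, BATF2, ACP5, STEAP4 and ADGRE3, and all 6 rose at 24 h in edgeR (adjusted p from 0.0111 to 0.0322). C3AR1, the receptor of a complement fragment, was at 14.9 CPM with DMSO, 44.2 with olaparib and 44.3 with talazoparib, after 12 h ratios of 0.22 and 0.45. MPEG1, a pore-forming protein of macrophages, was at 9.07, 26.8 and 29.3 CPM. Both lay higher in the inhibitor libraries at 24 h than at 12 h, although untreated cells at 0 h held 40.4 CPM of C3AR1. ACP5, an acid phosphatase of macrophages and osteoclasts, was at 5.89, 16.3 and 21.5 CPM, yet DMSO 12 h held 16.1 CPM, so the low value of DMSO 24 h bears on its ratio. ADGRE3, an adhesion receptor of myeloid cells, was at 19.3, 52.9 and 58.3 CPM. Against DMSO 48 h, the 24 h ratios were only 0.77 and 0.90 for MPEG1 and 0.73 and 0.99 for STEAP4. For C3AR1, BATF2, ACP5 and ADGRE3 both ratios to DMSO 48 h stayed above 1.

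Among genes of 5 CPM or more, AKAP12, SLAMF7, THBS1 and LPAR6 were also within the 12 largest by the smaller of both ratios. THBS1, a secreted matrix protein, was at 26 CPM with DMSO, 256.7 with olaparib and 111.8 with talazoparib, and its 12 h ratios were 1.58 and 0.68. AKAP12, a kinase anchoring protein, was at 4.42, 20.2 and 20.1 CPM, and the untreated library held 15.6 CPM of it. SLAMF7, a receptor of immune cells, was at 1.58, 10.1 and 8.25 CPM. LPAR6, a receptor for lysophosphatidic acid that lies inside an intron of RB1, was at 1.65, 6.60 and 7.11 CPM. DMSO 48 h held 5.02 CPM of LPAR6, against which the 24 h ratios were only 0.39 and 0.50. CD38, a surface enzyme, was the only one of 27 stem and progenitor genes in the set, at 1.21, 7.18 and 6.61 CPM. That share of 3.7% is near the 4.91% of all measured genes that were higher. The medians of that list were -0.13 and -0.31.

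Interferon-stimulated genes were higher at 24 h as well, but the DMSO libraries did not agree on their level. Many of these genes carry an element in the promoter that the factors STAT and IRF recognise after interferon. The bases before the start of 3 of the 18 that moved are shown because they hold the letters of such an element, GAAA followed by NN (any bases) and again GAAA, on either strand, written in capitals. The sequences are from RefSeq (GRCh38.p14), 5′ to 3′ on the strand of the gene, up to the base before its first listed start.
IFIT1 (chr10:89392463-89392622, plus strand): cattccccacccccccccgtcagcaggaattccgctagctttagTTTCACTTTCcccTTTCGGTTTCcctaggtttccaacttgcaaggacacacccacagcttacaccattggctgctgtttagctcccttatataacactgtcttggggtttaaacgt
IFIT3 (chr10:89327837-89327996, plus strand): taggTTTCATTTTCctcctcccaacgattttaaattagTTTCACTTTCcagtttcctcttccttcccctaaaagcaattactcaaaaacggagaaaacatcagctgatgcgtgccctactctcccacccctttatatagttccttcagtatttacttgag
IFI27 (chr14:94110576-94110735, plus strand): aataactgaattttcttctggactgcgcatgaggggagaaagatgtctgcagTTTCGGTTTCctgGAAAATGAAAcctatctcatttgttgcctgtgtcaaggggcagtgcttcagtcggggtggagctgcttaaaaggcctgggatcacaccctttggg

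The element was found in 26 of 39 promoters of the list (66.7%), in 9 of the 12 promoters of moved list genes with a window (75.0%), and in 3.65% of 27305 promoters. Windows run from 250 bases before to 50 bases after the start. Of the 464 promoters of all higher genes, 28 held it (6.03%). The match is to letters only and does not show that a factor was bound.

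Of 52 measured interferon-stimulated genes, 18 (34.6%) were higher with both inhibitors, against 4.91% of all measured genes, and none was lower. Of these, 17 had not yet moved at 12 h, against 70.0% of all higher genes. ZBP1, a sensor of nucleic acids, had moved with 1 inhibitor. The list median was 0.07 and 0.23 at 12 h and 0.77 and 1.23 at 24 h. At 24 h, 49 of 52 were positive with both (39.2% of all measured genes), and 10 of the 52 rose in edgeR (1.8% of all genes tested). However, the 52 genes had a median of 0.97 in DMSO 48 h over DMSO 24 h. Against DMSO 48 h the 24 h medians were -0.32 and 0.15, and of the 18 only GBP1 was higher by 1 or more against each of the 3 DMSO libraries. GBP1 rests on 1 count with DMSO against 36 and 17.

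IFIT1, which binds foreign RNA, was at 27.2 CPM with DMSO at 24 h, 58.6 with olaparib and 127.8 with talazoparib, while DMSO 48 h held 118.8 CPM. MX1, an antiviral GTPase, was at 46, 99.8 and 133.3 CPM at 24 h and rose in edgeR (adjusted p = 0.0247), while DMSO 48 h held 139.8 CPM. Of these inhibitor values, only IFIT1 with talazoparib lay above all DMSO libraries. IFIT2 was at 9.63 CPM with DMSO, 33.3 with olaparib and 54.4 with talazoparib, above the 18.9 CPM of DMSO 48 h (adjusted p = 0.0631).

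**Figure D4:**
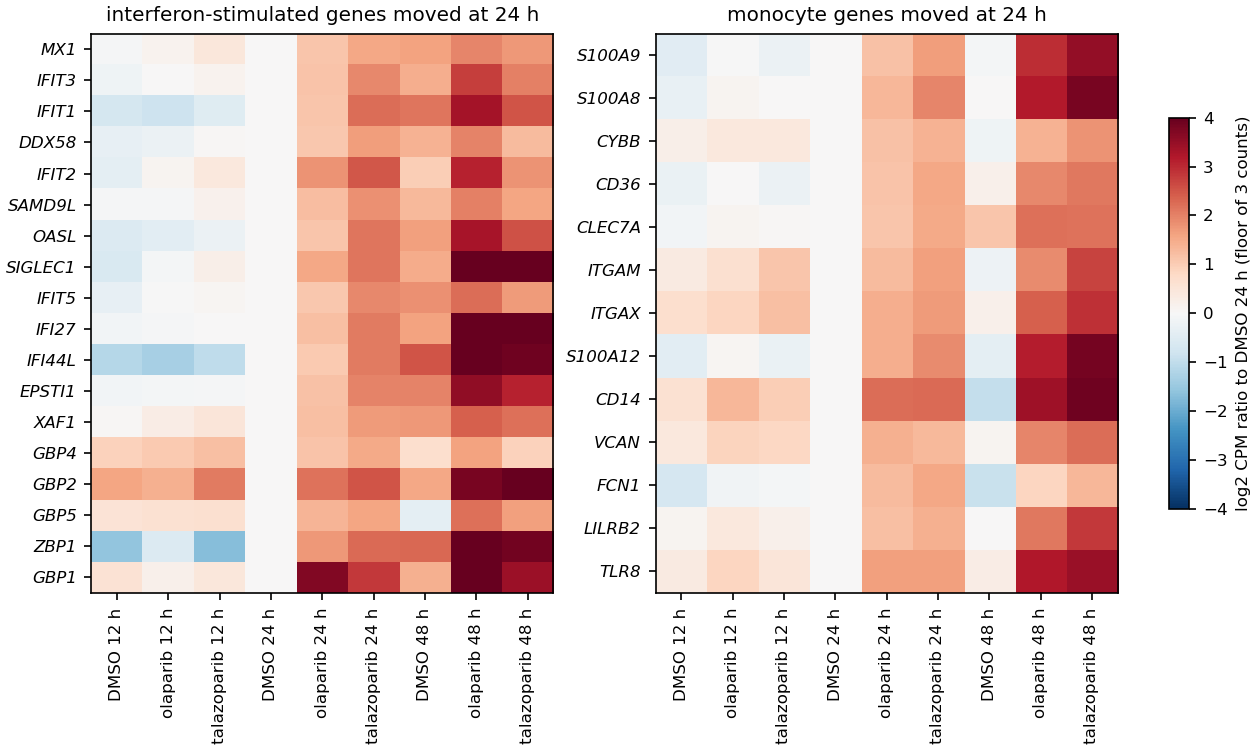
Log2 CPM ratio to DMSO 24 h (colour, capped at 4 in size, counts under 3 set to 3) for the 18 interferon-stimulated genes (left) and 13 of the 14 monocyte genes (right) that moved at 24 h, in the 9 libraries of the time course. DMSO 48 h is red for most interferon-stimulated genes and near white or blue for most monocyte genes.

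Of the 8 lower genes of 5 CPM or more, 5 were genes of mitosis. Of 54 measured G2/M genes, 5 were lower with both inhibitors and none was higher, while 0.533% of all genes were lower. The count was set by olaparib: 5 genes were at -1 or less with olaparib and 41 with talazoparib, and 52 of 54 were negative with both, against 39.2% of all measured genes (6468). The medians were -0.54 and -1.303 at 24 h, after -0.27 and -0.49 at 12 h, and reached -1.65 and -3.55 at 48 h. At 48 h, 43 were lower with both, against 9.47% of all measured genes. Against DMSO 12 h the 24 h medians were -0.45 and -1.16, and against DMSO 48 h -0.38 and -1.22, and of the 5 genes only PSRC1 was lower by 1 or more against each of the 3 DMSO libraries. In edgeR only PSRC1 and CKS2, a subunit of cyclin-dependent kinases, fell at 24 h (adjusted p = 0.0383 and 0.0444). For S phase genes, none of 43 was lower with both inhibitors at 24 h (medians -0.41 and -0.66). With 0.533% of all measured genes lower, that count of 0 carries little weight. At 48 h, 35 of the 43 were lower with both, against 9.47% of all measured genes.

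Promoters of mitotic genes often carry a cell cycle homology region, to which the DREAM complex binds, and CCAAT boxes. The bases before the first listed start of 4 of the 5 lower G2/M genes are shown, since each window holds both, with the region (TTTGAA or TTCGAA) and CCAAT, on either strand, in capitals. In CDCA3 the region crosses the start, and only its first letters fall within the printed bases. The sequences are from RefSeq (GRCh38.p14), 5′ to 3′ on the strand of the gene.
CDC20 (chr1:43358821-43358980, plus strand): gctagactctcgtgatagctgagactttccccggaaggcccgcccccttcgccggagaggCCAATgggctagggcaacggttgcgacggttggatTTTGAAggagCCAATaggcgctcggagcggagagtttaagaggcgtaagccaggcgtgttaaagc
PSRC1 (chr1:109283146-109283305, minus strand): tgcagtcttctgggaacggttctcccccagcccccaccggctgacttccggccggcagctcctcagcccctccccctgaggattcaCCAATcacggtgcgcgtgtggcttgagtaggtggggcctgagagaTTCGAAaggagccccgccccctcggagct
CENPA (chr2:26785896-26786055, plus strand): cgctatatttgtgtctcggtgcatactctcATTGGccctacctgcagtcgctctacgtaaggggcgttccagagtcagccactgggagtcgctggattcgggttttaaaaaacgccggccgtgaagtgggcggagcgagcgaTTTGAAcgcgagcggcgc
CDCA3 (chr12:6851287-6851446, minus strand): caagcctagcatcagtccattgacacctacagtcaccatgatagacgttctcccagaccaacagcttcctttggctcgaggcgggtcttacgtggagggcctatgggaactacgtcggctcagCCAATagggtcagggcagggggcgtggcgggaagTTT

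Over the G2/M list, 33 of 45 promoters held the homology region (73.3%) and 31 a CCAAT box (68.9%), against 16.6% and 35.7% of all promoters. Among the 32 promoters of all lower genes, 11 (34.4%) held the region. For comparison, E2F motifs (TTTCCCGC, TTTGGCGC, TTTCGCGC or TTTGCCGC) were in 16 of 33 promoters of S phase genes (48.5%) and 3.33% of all, and the p53 decamer in 4 of 37 promoters of p53 targets (10.8%) and 6.54% of all. A decamer farther from the start than these windows would not be seen. These matches too are to letters only and do not show that a factor was bound. The share of a list is the same whether or not its members moved, and whether such a factor lowered these genes was not tested.

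CDC20, the activator of the anaphase-promoting complex, was at 274.7 CPM with DMSO, 121.3 with olaparib and 46.4 with talazoparib. Its ratios were -1.18 [-1.22 to -1.14] and -2.57 [-2.63 to -2.51], after -0.56 and -0.85 at 12 h. DMSO 48 h held 156.9 CPM, against which the olaparib ratio was -0.37. In edgeR the difference was -1.72 ± 0.71 (SE) and did not pass (adjusted p = 0.242). Counts of its near-identical copy CDC20P1 could be shared with it. PSRC1, a spindle protein, was at 39 CPM with DMSO, 16 with olaparib and 9.21 with talazoparib and fell by 1.63 ± 0.31 on the log2 scale in edgeR. Untreated cells at 0 h held 19.6 CPM of it, below every DMSO library.

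CENPA, the centromeric histone, was at 36.4 CPM with DMSO, 18 with olaparib and 9.07 with talazoparib. CDCA3, which promotes entry into mitosis, was at 50.1, 24.9 and 11.6 CPM, and PIMREG, a mitotic regulator, at 29.4, 14.2 and 7.11 CPM. None of these 3 passed in edgeR (adjusted p from 0.183 to 0.293), and in each the olaparib library lay below all DMSO libraries. Against DMSO 48 h, however, their olaparib ratios were -0.725, -0.45 and -0.86, and untreated cells held 14.2 CPM of CENPA, below its olaparib value. MKI67, the proliferation antigen, was at 227.2, 160.6 and 91.4 CPM and was not in the set (adjusted p = 0.382).

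PHGDH, which catalyses the first step of serine synthesis (chromosome 1, 119648411 to 119744226, GRCh38), was the lower gene of 5 CPM or more within 0.5 of no difference at 12 h. It was at 90.1 CPM with DMSO, 78.6 with olaparib and 87.3 with talazoparib at 12 h, and at 70.2, 28.1 and 21.2 CPM at 24 h. By 48 h DMSO held 198.6 CPM and the inhibitor libraries 8.72 and 1.98 CPM. The 24 h ratios were -1.32 [-1.40 to -1.24] and -1.73 [-1.82 to -1.64], and the effect at 24 h did not pass in edgeR (adjusted p = 0.172). In the ATF4 stress response list to which it belongs, 2 of 24 genes were higher, ATF3 and NUPR1 (8.33%, against 4.91% of all measured genes), and 4 rose in edgeR. No member was higher by 1 or more against each of the 3 DMSO libraries. Against DMSO 48 h, NUPR1 was at 0.09 and 0.60 and ATF3 at -0.46 and -0.02. None of 26 sterol and fatty acid synthesis genes moved with both inhibitors. With 4.91% of all measured genes higher and 0.533% lower, that count carries little weight.

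SNHG1, a host gene of snoRNAs that overlap it, was at 93 CPM with DMSO, 44.9 with olaparib and 36.3 with talazoparib (adjusted p = 0.0507 in edgeR). U2AF1, a splicing factor, had the most extreme values, at 90.9 CPM with DMSO, 0.49 with olaparib and 17.2 with talazoparib. Its near-identical copy U2AF1L5 was at 0.56, 7.30 and 0.88 CPM, and U2AF1 was also at 0.73 CPM with olaparib at 12 h but at 65.2 CPM with olaparib at 48 h. In the knockdown libraries its ratios ran from -7.49 to 5.70. Reads of near-identical copies can be assigned or dropped differently between libraries, so U2AF1 is uncertain and is not read as lower.

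**Figure D5:**
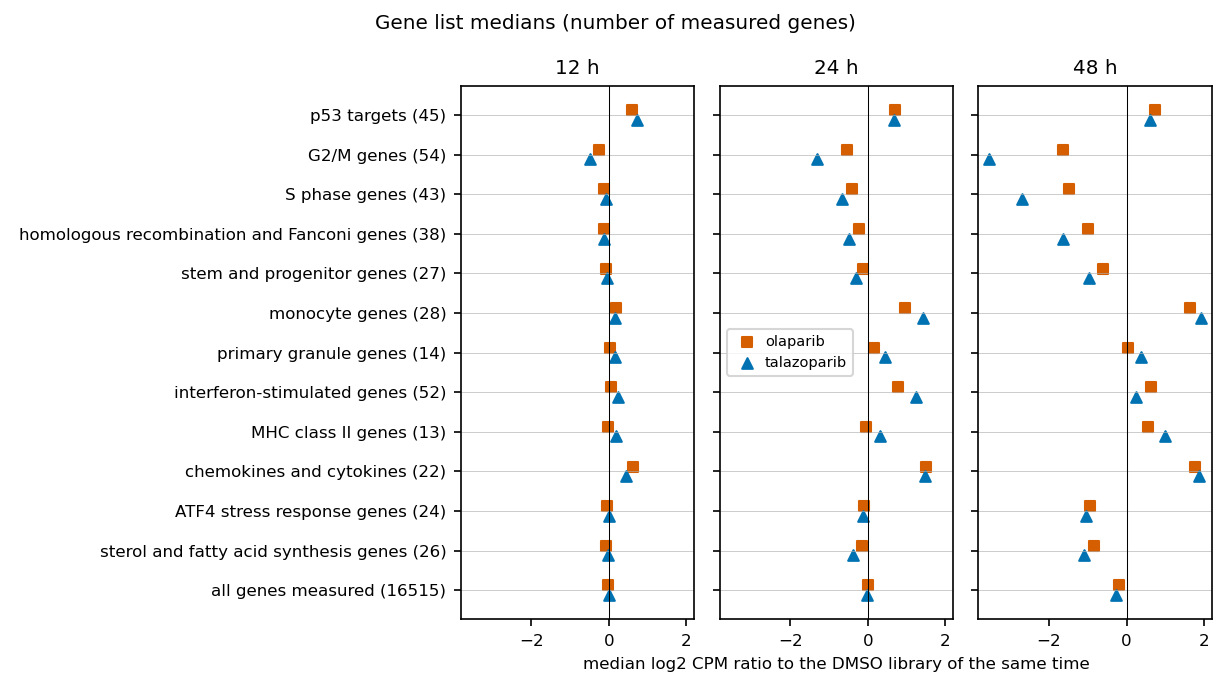
Median log2 CPM ratio to the DMSO library of the same time for 12 gene lists and all genes measured (number of genes in brackets), for olaparib (squares) and talazoparib (triangles) at 12, 24 and 48 h. At 24 h the cytokine, monocyte and interferon-stimulated medians lay from 0.77 to 1.52 and the G2/M medians at -0.54 and -1.303, whereas at 12 h only the p53 and cytokine medians exceeded 0.4 with both inhibitors.

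The transcription factor genes MECOM, ERG, GATA2 and HOXB2 and the progenitor marker CD34 were not in the set at 24 h. MECOM was at 50.9 CPM with DMSO, 40.8 with olaparib and 31.4 with talazoparib, with ratios of -0.32 [-0.39 to -0.25] and -0.70 [-0.78 to -0.62] (adjusted p = 0.496 in edgeR). Untreated cells at 0 h held 28.4 CPM of MECOM, below both inhibitor values at 24 h. CD34 was at 290.6, 215.3 and 244.4 CPM, and ERG, a transcription factor of stem cells, at 32.5, 19.6 and 18 CPM. GATA2, a progenitor transcription factor, was at 62.9, 82.3 and 74.7 CPM, and HOXB2 at 3.80, 3.89 and 3.33 CPM. None of these passed in edgeR (adjusted p from 0.272 to 0.927). At 48 h, MECOM was at 21 and 8.54 CPM with the inhibitors against 63.6 CPM with DMSO.

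Markers of other cell types gave these values. In the T and NK cell list, 4 of 8 measured genes were higher (CD3G, GNLY, PRF1 and TRAC), against 4.91% of all measured genes, and none passed in edgeR. CD3G had only 7, 14 and 21 counts with DMSO, olaparib and talazoparib, and GNLY 11, 38 and 23. The summed level of the list was 36.4 CPM with DMSO, 57.8 with olaparib and 59.3 with talazoparib. PRF1 alone was at 12.9, 29.4 and 27 CPM. Of 5 B cell markers, IGLL1, a surrogate light chain of B cell precursors, was lower at 4.18, 1.08 and 0.67 CPM, and MS4A1 was at 0 counts. None of 3 erythroid, 7 megakaryocyte, or 3 epithelial and stromal markers was higher or lower by 1 with both inhibitors, with HBA2, AHSP, COL1A2, COL3A1, DCN and KRT5 at 0 counts in all 3 libraries. With 4.91% of all measured genes higher and 0.533% lower, counts in lists of 3 to 7 genes carry little weight. In edgeR no B cell, erythroid, epithelial or stromal marker passed, and ITGA2B, an integrin of megakaryocytes, rose, at 82.7 CPM with DMSO, 143.7 with olaparib and 162.2 with talazoparib (adjusted p = 0.0391). The megakaryocyte list had a summed level of 89.5 CPM with DMSO, 154.2 with olaparib and 176.3 with talazoparib. In bulk libraries, more cells of a type and more RNA per cell cannot be told apart.

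The knockdown libraries give another readout of the 899 genes with controls of their own. MECOM had ratios to NTC of -1.79 and -3.24 at day 3 and -1.26 and -3.46 at day 6 with shEVI1-2531 and shEVI1-2532, so the targeted gene was lower in all 4 libraries. Of the 811 genes higher at 24 h, 188 (23.2%) were higher by 1 or more with both shRNAs at day 3 and 259 (31.9%) at day 6, against 2.83% and 3.34% of all measured genes. Of the 88 lower genes, 21 (23.9%) were lower at day 3 and 20 (22.7%) at day 6, against 7.88% and 7.15% of all. The median of the 811 at day 6 was 0.70 with shEVI1-2531 and 0.87 with shEVI1-2532.

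The groups behaved differently there. The monocyte medians at day 6 were 0.96 and 1.65, with CD14 at 4.41 and 5.11 and PHGDH at -2.36 and -5.90 in the same libraries. The interferon-stimulated genes lay in the opposite direction, with medians of -1.49 and -1.86 at day 6, and IFIT1 was at -3.04 and -5.62. The p53 targets had medians of 0.55 and 0.53 and the G2/M genes -0.62 and -1.81. These differences between the experiments were not tested.

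The limit of 1 divides a continuous range. The last gene inside it among the higher genes was HGD with a smaller ratio of 1.001, and the first outside was SAMHD1 with 0.99998. Among the lower genes, AL672207.1 was just inside with 1.004 in size and TPTE2P5 just outside with 0.99541. Olaparib alone had 968 genes higher and 272 lower by 1 or more, and talazoparib 1309 and 564. Only 3 genes moved in opposite directions, all higher with olaparib and lower with talazoparib: SLC5A2, CU634019.1 and CR381653.2. Against each of the 3 DMSO libraries, 296 of the 811 (36.5%) and 14 of the 88 (15.9%) kept a ratio of 1 or more in size with both inhibitors, so for the remaining genes the choice of the DMSO library set whether they were counted.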

How the data were processed

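RNA-Seq of MUTZ-3 cells was made with a TruSeq Stranded mRNA kit and 100 bp paired-end reads. The authors deposited raw counts per gene and TPM for each library, and the submitters' processing notes name STAR, Picard, featureCounts and GRCh38 (hg38), with versions and strand setting not given in the sources used here. TPM had been divided by the whole gene span and were used only to check the counts. Ratios used raw counts over library totals, with a count of 0 set to 3 counts. Effects across genes used edgeR 4.0.16 in R 4.3.3 (TMM, quasi-likelihood test, Benjamini-Hochberg adjustment over 17218 genes with 10 or more counts in at least 3 of 9 libraries, 6 group means, 3 residual degrees of freedom), checked on simulated counts, with DESeq2 1.42.0 as an alternative. Both inhibitors stand in for replicates, so p-values rest on the spread between 2 compounds at different doses, taken over 12, 24 and 48 h together.

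The genes and the 21 lists were chosen with earlier results of these data known. Named genes were, in each direction, up to 12 with the largest smaller ratio at a mean of 5 CPM or more, up to 6 of these within 0.5 at 12 h, a fixed group of genes by name (MECOM, PARP1, CD34, ERG, GATA2, HOXB2, CD14, PHGDH, CDKN1A and MKI67), up to 4 moved members per list, and markers of other cell types. Further list members, and genes named from the 19 early ones, were chosen after their values were seen. Overlapping genes came from the files' coordinates and gene types from GENCODE. The labels do not say whether libraries came from separate cultures. Some items are not reported here. Every column was assigned to a sample.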

Additional observations from a re-analysis of the deposited data

Results flagged for a closer look

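GATA2, GBP1 and ATF3 had ratios of 1 sign with both inhibitors at 24 h and of the opposite sign with both at another time. GATA2 had 0.39 and 0.25 at 24 h with olaparib and talazoparib, and -0.0308 and -0.141 at 48 h. The olaparib interval at 48 h ran from -0.0978 to 0.0363 and so held 0. GBP1 had 5.28 and 4.41 at 24 h from 1 count with DMSO, and -1.96 [-7.58 to 1.38] and -0.14 [-2.57 to 2.28] at 12 h from 4 counts with DMSO, 1 with olaparib and 4 with talazoparib, so its sign at 12 h was not determined at this depth. ATF3, a stress-induced transcription factor, had 1.26 and 1.70 at 24 h, and -0.17 and -0.60 at 48 h, when DMSO held 15.5 CPM against 4.69 CPM at 24 h. The difference between 24 h and 48 h was not tested, and for GBP1 edgeR called no difference between 24 h and 12 h.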

How the results depend on the processing

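The counts of genes depended on the filter, on the limit and on which DMSO library was the control. Of 811 higher and 88 lower genes, the counts became 1663 and 447 with no filter, 446 and 39 at 1 CPM, 312 and 8 at a limit of 1.5, and 2074 and 834 at 0.5. Against DMSO 48 h, 238 were lower, while 771 were higher, of which 461 were shared. Against DMSO 12 h, 832 were higher and 105 lower, of which 454 and 29 were shared. Normalization moved less, with 792 and 96 under TMM and 768 and 104 under DESeq2 size factors. The 568 higher and 67 lower genes not yet moved at 12 h became 337 and 33 at 1 CPM, 365 and 36 with DMSO 24 h as control of 12 h too, and 228 and 24 when under 0.5 was required. The edgeR calls at 24 h (310 higher, 13 lower) became 812 and 162 in DESeq2, 1225 and 533 with no filter, 1607 and 1018 with 12 h and 24 h libraries only, and 1272 and 669 with the 24 h libraries only. Calls between 24 h and 12 h (0 with a higher log2 ratio at 24 h, 0 with a lower one) became 16 and 1 in DESeq2. They became 127 and 13 with no filter, and 10 and 2 with 12 h and 24 h libraries only. The cause of these shifts was not tested. Against DMSO 48 h, ZBP1 turned to -0.55 and -0.0423 and ATF3 to -0.46 and -0.0228, and 84 other ratios of named genes, of 116, moved by more than their counting interval. No paired analysis was possible because the labels give no replicate numbers, and the ratios and the fit already match libraries by time.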

Other observations

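Of the 811 higher genes, 180 were under 1 with both inhibitors at 48 h, and 127 passed the limit at 24 h alone. Those of 5 CPM or more include PTGS2, which makes prostaglandins, TIMP3, an inhibitor of matrix proteases, and the interferon-stimulated genes MX1, SAMD9L, XAF1 and IFIT5, all chosen after their values were seen. For 47 of the 811 both ratios at 48 h had the opposite sign.

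1 library per condition, a control library shared by both ratios, and low counts limit these values. Intervals cover counting error only, and 421 higher genes lie under 1 CPM. Whether the 24 h control was itself unusual for a gene can be read only from the other DMSO libraries, which differ in time.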
